A study of Mus musculus with 69 samples.

Results

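The genes described here are those whose products are the heat shock proteins and their DnaJ partners. They were taken by symbol: every mouse gene whose symbol begins with Hsp followed by a, b, d, e, h or 90, or with Dnaj followed by a, b or c and a digit, leaving out 13 pseudogenes. This gave 74 of the 52636 genes in the count table. By family they were 11 HSP70 genes, 3 HSP110 genes, 3 HSP90 genes, 2 genes of the mitochondrial chaperonin (HSP60 and HSP10), 7 small heat shock protein genes, 4 DNAJA, 13 DNAJB and 28 DNAJC genes. A further 3 genes (Hspbp1, Hspbap1 and Hspb11) carry such a name without being a chaperone of these families. They are included wherever chaperone genes are counted below.

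RNA was sequenced from whole tissue of the nucleus accumbens of male mice in 4 groups of 8 libraries. Standard GFP mice had standard rearing and a GFP control, and ELS GFP mice had early life stress (ELS) and the same GFP control. Standard Dot1l overexpression mice had standard rearing, and ELS Dot1l knockdown mice had early life stress, so each Dot1l group has a GFP group of its own rearing. The labels used here give no age, vector, promoter or target cell type. DOT1L is the enzyme that methylates histone H3 at lysine 79, and chromatin immunoprecipitation for the dimethyl form (H3K79me2) gave 1 peak list for Standard and 1 for ELS males. The labels do not say that each library is a separate animal, so p-values measure the spread between these libraries, which may be technical in part.

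Chaperones bind proteins that are unfolded or still folding. An HSP70 holds a client through cycles of ATP hydrolysis, a DnaJ protein brings the client and triggers hydrolysis, and an HSP110 or another exchange factor releases the nucleotide so that the client leaves. HSP90 takes over clients that are nearly folded, such as kinases and steroid receptors, and small heat shock proteins hold unfolded proteins without ATP. Each compartment has its own set: HSPA8 with HSP90AA1 and HSP90AB1 in the cytosol, HSPA5 with HSP90B1 in the endoplasmic reticulum (ER), and HSPA9 with HSPD1 and HSPE1 in mitochondria. In neurons, DnaJ proteins also serve membrane traffic: DNAJC5 (cysteine string protein) guards proteins of the synaptic vesicle and DNAJC6 (auxilin) brings HSPA8 to clathrin coats. Heat shock factors switch on the cytosolic genes, and the unfolded protein response switches on the ER genes.

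Both switches have DNA motifs that can be read in the promoters. RefSeq promoter windows (GRCm38.p6, 250 bases before and 50 after a transcript start) were at hand for 60 of the 74 genes, in 77 windows. Hspa8, Hsp90aa1 and Hsp90ab1 are among the genes without a window, so their promoters were not searched. The heat shock element is built of inverted repeats of GAA. A run of 3 units, GAANNTTCNNGAA on either strand, was found in 4 of the 60 genes (6.67%), Dnajb6, Hspd1, Hspe1 and Hsph1, against 0.662% of all genes with a window. Both 2-unit pairs lie within the 3-unit run. The pair GAANNTTC was found in 14 of the 60 (23.3%, against 9.04% of all genes), and the pair TTCNNGAA in 6 (10.0%, against 9.6%). Windows are given here for Hspe1, Hsph1 and Dnajb6, which have a 3-unit run, and for Dnaja1, which has a pair, since these come back in the RNA results. Each is written 5′ to 3′ on the strand of the gene, and capitals mark matches to the heat shock element on either strand. They lie at chr1:55087898-55088197 (+) for Hspe1, chr5:149636266-149636565 (-) for Hsph1, chr5:29735648-29735947 (+) for Dnajb6 and chr4:40722218-40722517 (+) for Dnaja1.
Hspe1: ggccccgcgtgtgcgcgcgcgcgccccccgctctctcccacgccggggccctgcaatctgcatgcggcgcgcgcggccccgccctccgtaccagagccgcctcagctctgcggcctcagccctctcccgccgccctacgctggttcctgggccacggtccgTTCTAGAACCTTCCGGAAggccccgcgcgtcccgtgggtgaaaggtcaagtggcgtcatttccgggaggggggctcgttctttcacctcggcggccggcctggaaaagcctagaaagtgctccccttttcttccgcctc
Hsph1: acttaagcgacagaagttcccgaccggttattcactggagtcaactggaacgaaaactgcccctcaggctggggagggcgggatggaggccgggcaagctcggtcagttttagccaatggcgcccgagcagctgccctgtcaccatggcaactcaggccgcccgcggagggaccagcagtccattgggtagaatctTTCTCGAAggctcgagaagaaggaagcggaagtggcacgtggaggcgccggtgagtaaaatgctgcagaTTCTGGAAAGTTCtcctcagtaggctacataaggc
Dnajb6: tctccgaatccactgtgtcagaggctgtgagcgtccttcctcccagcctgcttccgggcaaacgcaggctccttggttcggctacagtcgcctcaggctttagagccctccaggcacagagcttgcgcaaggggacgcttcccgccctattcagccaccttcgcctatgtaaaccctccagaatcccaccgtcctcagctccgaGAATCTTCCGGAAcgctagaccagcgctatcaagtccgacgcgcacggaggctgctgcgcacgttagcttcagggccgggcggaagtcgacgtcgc
Dnaja1: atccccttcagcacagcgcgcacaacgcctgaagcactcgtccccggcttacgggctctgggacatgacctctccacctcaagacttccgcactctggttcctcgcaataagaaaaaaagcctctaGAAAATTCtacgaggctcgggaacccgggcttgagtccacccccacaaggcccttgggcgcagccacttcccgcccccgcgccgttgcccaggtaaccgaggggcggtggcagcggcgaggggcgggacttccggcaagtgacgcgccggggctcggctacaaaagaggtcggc

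The Hspe1 window lies within the RefSeq span of Hspd1, a gene of the opposite strand whose span reaches to chr1:55088243, past the window. By these spans the marked run lies before the start of the co-chaperonin gene Hspe1 and inside the chaperonin gene Hspd1. The 3-unit run counted for Hspd1 was found in a window of its own, which is not printed here. The ER stress element, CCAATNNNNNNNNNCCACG on either strand, was found in 3 of the 60 genes (5.0%), against 0.137% of all genes. These 3 were Hspa5, Hsp90b1 and Dnajc3, whose products all work in the ER. The CCAAT box alone, which is part of that element, did not set the genes apart (41.7% of the 60, 41.1% of all genes). Capitals mark the ER stress element in the windows at chr2:34771840-34772139 (+) for Hspa5, chr10:86705395-86705694 (-) for Hsp90b1 and chr14:118937682-118937981 (+) for Dnajc3.
Hspa5: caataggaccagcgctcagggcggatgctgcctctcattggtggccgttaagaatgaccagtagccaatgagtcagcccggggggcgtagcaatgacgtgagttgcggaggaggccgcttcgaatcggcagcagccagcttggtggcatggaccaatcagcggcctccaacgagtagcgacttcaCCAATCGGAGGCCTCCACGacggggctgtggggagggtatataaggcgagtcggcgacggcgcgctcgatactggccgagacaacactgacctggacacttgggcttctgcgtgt
Hsp90b1: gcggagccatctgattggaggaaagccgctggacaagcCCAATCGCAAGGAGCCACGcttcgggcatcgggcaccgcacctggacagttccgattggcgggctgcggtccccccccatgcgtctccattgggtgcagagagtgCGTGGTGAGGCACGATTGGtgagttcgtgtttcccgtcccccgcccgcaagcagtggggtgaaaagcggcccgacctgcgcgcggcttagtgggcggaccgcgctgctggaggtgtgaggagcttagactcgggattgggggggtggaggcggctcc
Dnajc3: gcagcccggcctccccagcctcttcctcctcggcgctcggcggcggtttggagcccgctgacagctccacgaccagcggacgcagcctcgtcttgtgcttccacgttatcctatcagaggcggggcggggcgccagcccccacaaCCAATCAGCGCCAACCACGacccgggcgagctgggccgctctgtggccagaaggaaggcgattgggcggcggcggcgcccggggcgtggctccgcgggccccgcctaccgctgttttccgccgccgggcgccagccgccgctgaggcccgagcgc

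The Hsp90b1 window holds 2 copies of the element, in opposite orientations. A match is a description of letters and says nothing of binding. The windows of the chaperone genes were also richer in G and C than others, with a median of 62.3% against 52.7% over all 32851 windows.

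Total counts per library (in M, mega) ranged from 0.314 to 9.8 M for Standard GFP, from 1.76 to 11.1 M for ELS GFP, from 2.48 to 7.88 M for overexpression and from 0.462 to 8.8 M for knockdown. Standard GFP replicates 1, 4 and 5 and knockdown replicate 7 held less than 1 M. Dot1l itself averaged 33.8 ± 10.8 CPM (counts per M of a library's effective size, its total times its TMM factor) in Standard GFP and 42.9 ± 19.0 in the overexpression group, and 35.5 ± 11.4 in ELS GFP and 42.9 ± 15.2 in the knockdown group (SD, n = 8 each). Its RNA thus did not separate either Dot1l group from its control, so directions below are those of libraries labelled as overexpression or knockdown. All 10 listed markers of medium spiny neurons, the main neurons of this region, were detected in every group. Of the other cell types, 1 of 7 astrocyte markers and 2 of 7 microglia markers were at 0, and all 7 myelin and 6 endothelial markers were detected.

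Of the 74 genes, 60 had enough counts to be tested and 4 (Dnajb3, Dnajb7, Dnajc28 and Hspb2) had no count in any of the 32 libraries. CPM values are not divided by gene length, so they are compared within a gene and not between genes. The exceptions are shares of the counts and the Spearman's rho with peak coverage. Hsp90ab1, Hspa8 and Hsp90aa1, the cytosolic HSP90s and the constitutive HSP70, took a median of 42.2% of all counts of the 74 genes in a library (range 35.3 to 60.4%). The genes together summed to a median of 2241 CPM in Standard GFP, 2150 in ELS GFP, 2223 in the overexpression group and 2188 in the knockdown group. These medians lie close together, and each group's range (2003 to 3351, 1761 to 3824, 1868 to 3042 and 2000 to 2363 CPM) overlaps the others.

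Hspa8, on chr9:40801276-40805202, was the steadiest of the 28 genes with a mean of at least 20 CPM in the control group. Its level ran from 259.5 to 351.1 CPM in Standard GFP (median 290.0), a coefficient of variation of 10.8%. It ran from 154.5 to 675.0 CPM in ELS GFP (median 290.1), from 257.7 to 402.2 in the overexpression group (median 300.6) and from 252.0 to 366.6 in the knockdown group (median 279.0). The 4 medians were nearly the same and the groups overlapped. Dnajc13, which acts on endosomes (coefficient of variation 21.4%), Dnajc5 (22.6%), Dnajb6, which keeps polyglutamine proteins from aggregating (28.4%), and Hspa9 (29.3%) followed. At the other end stood Dnajc27 (119.9%), Hspa5 (94.6%), Dnajc16 (79.5%), Dnajc8 (71.1%) and Hsp90ab1 (63.1%). The median over the 28 genes was 36.5%, against 43.7% over all 4813 genes at that level.

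The high values came from few libraries. Hsp90ab1, on chr17:45567778-45573261, ran from 337.6 to 1345 CPM in Standard GFP (median 454.0), from 312.4 to 935.1 in ELS GFP (median 365.1), from 306.4 to 625.5 in the overexpression group (median 393.6) and from 324.0 to 492.8 in the knockdown group (median 408.3). Hspa5, the ER HSP70, had 257.9 CPM in Standard GFP replicate 1, where the next library had 79.7. Its medians were 59.9 CPM in Standard GFP, 58.1 in ELS GFP, 66.2 in the overexpression group and 56.3 in the knockdown group. Stress-inducible HSP70 was barely counted. Hspa1b had medians of 1.34, 1.38, 1.58 and 0.67 CPM in the 4 groups, and Hspa1a had 0 counts in 24 of the 32 libraries. The coding sequences of these 2 genes are nearly identical, so how reads were split between them is uncertain.

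ELS GFP replicate 2, a library of 1.76 M counts, held high values of several chaperone genes. In it 10 of the 60 tested genes (16.7%) were at least 2-fold above the group median, against 11.7% of all tested genes. Dnajc27, a small GTPase with a J domain, had 140.0 CPM (7.68 times the group median). Dnaja1, a DnaJ partner of HSPA8, had 199.7 CPM (6.47 times), Dnaja4 50.7 (4.25 times), Hsph1 154.1 (2.90 times) and Hspa8 675.0 (2.33 times). Hsp90ab1 had 935.1 and Hsp90aa1 538.8 CPM, each 2.56 times the median. The others of the 10 were the ER gene Dnajc1 (2.57 times), Hspa1b (2.33 times) and the mitochondrial Hspe1 (2.30 times). Other genes of the same compartments were near the median, such as Dnajb1 (1.22 times) and Hspa4 (0.834 times) of the cytosol, Hspa5 (1.08 times) of the ER and Hspa9 (1.06 times) of mitochondria. Some chaperone genes were well below it, such as Dnajb5 (0.466 times) and Dnajb9 (0.6 times). That library also had the highest summed level in its group of medium spiny neuron markers (1969 CPM, group median 666.0), myelin markers (944.7, median 559.7), astrocyte markers (583.8, median 436.6) and endothelial markers (163.8, median 122.4), whose part in these values was not tested. The highest sum of microglia markers in the group was in replicate 4 instead (479.2 CPM, median 215.2).

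**Figure D1:**
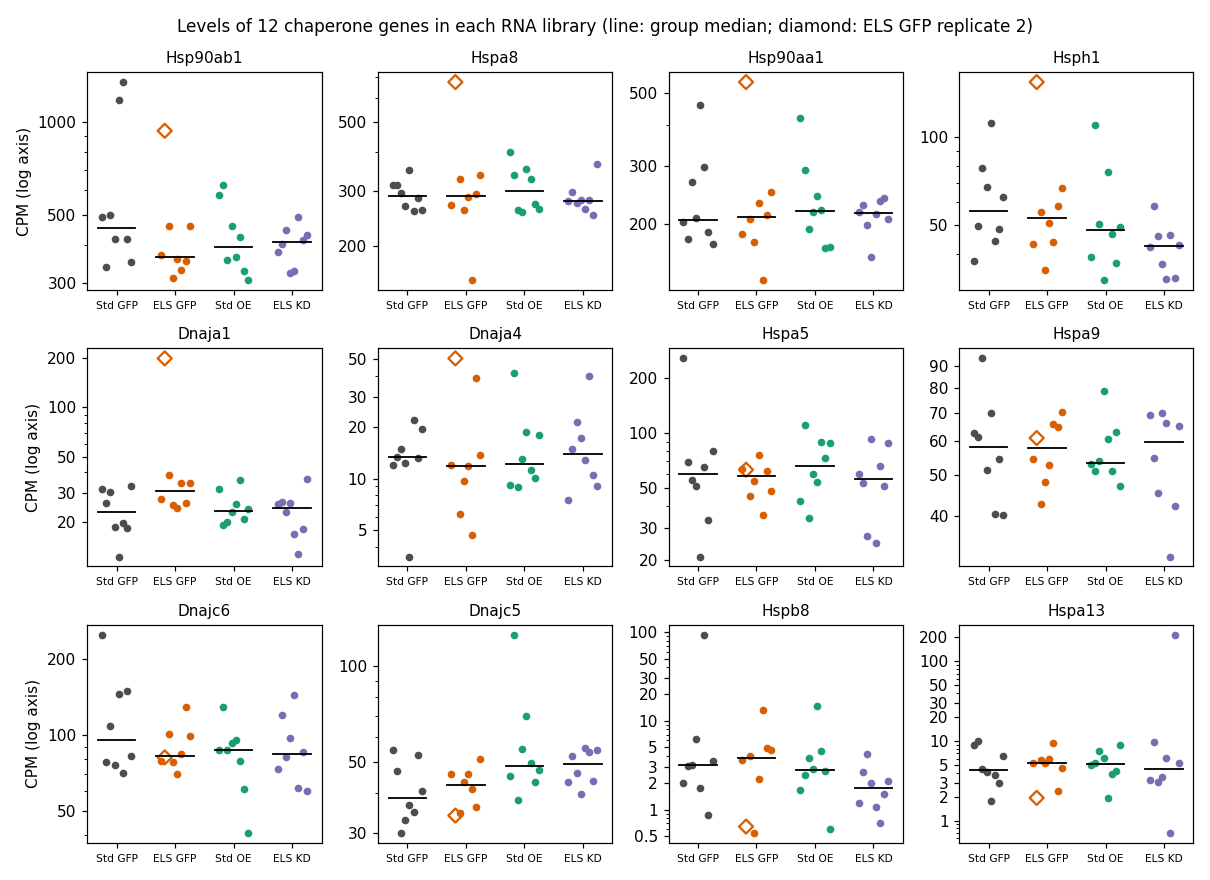
CPM (log axis) of 12 chaperone genes in each of 32 RNA libraries, by group (Std, Standard; OE, Dot1l overexpression; KD, Dot1l knockdown); lines are group medians and the diamond is ELS GFP replicate 2. Dnaja1 shows 1 library at 199.7 CPM above 7 ELS GFP libraries at or below 38.8, and Hspa13 shows 1 knockdown library at 215.8 CPM above a group median of 4.45.

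Across all 32 libraries the level of Hspa8 was most like that of Hsph1 (Spearman's rho 0.501), Hsp90aa1 (0.496), Hsp90ab1 (0.483), Dnaja1 (0.389) and Dnajc8, a splicing-associated DnaJ protein (0.381). The median over the other 59 tested members was 0.032, and over all genes -0.004. Without ELS GFP replicate 2 the values over 31 libraries were 0.451, 0.446, 0.444, 0.327 and 0.488. Dnajc8 then came first, and Dnaja1 stood behind Dnajb5 (0.368), Hspa4 (0.333) and Dnaja2 (0.33). These points share library depth and group, so the values describe the libraries.

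The effect of early life stress was read from ELS GFP against Standard GFP. None of the 60 tested genes passed an adjusted p of 0.05 (edgeR quasi-likelihood test), nor did any other gene (0.0% of 14016). At an unadjusted p under 0.05, 1 chaperone gene was higher (4.0% of all genes were) and 2 were lower (7.73% were). By DESeq2, 0 of the 54 with an adjusted p passed, against 0.702% of all genes. The median log2 fold change was -0.04 over the 60 genes (27 above 0, 33 below) and -0.01 over all genes. In bulk tissue, fewer cells of a type and less RNA per cell cannot be told apart. In this comparison the summed astrocyte markers had medians of 586.9 CPM in Standard GFP and 436.6 in ELS GFP, myelin markers 836.7 and 559.7, microglia markers 305.4 and 215.2, and medium spiny neuron markers 1179 and 666.0, with overlapping ranges. Endothelial markers went the other way, from 82.1 to 122.4 CPM, also with overlapping ranges. Their part in any difference here was not tested.

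Dnaja1 had the smallest p with ELS. Its level ran from 12.2 to 32.9 CPM in Standard GFP (median 22.9) and from 24.3 to 199.7 in ELS GFP (median 30.9). All 8 ELS GFP libraries lay above the median of the controls, but the groups overlapped. The log2 fold change was 1.06 (SE 0.35, edgeR adjusted p = 0.159), and 0.32 (SE 0.23, edgeR adjusted p = 0.709) without ELS GFP replicate 2. The next by p on the higher side were Hspa4l, an HSP110 (log2 fold change 0.44), Dnajc1, an ER DnaJ protein (0.56), and Dnajc15, a DnaJ protein of the mitochondrial inner membrane (0.71). Their edgeR adjusted p-values were 0.45 for Hspa4l and no smaller than 0.317 for these 3 with any library left out. Without their top library Dnajc1 had a log2 fold change of 0.29 and Dnajc15 of 0.23.

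On the lower side stood Hspb8, a small heat shock protein that works with BAG3 in the disposal of aggregates. It had 93.2 CPM in Standard GFP replicate 6, where the next library of that group had 6.17, and a median of 3.14 CPM in Standard GFP and 3.80 in ELS GFP. Its log2 fold change of -1.76 (SE 0.74, edgeR adjusted p = 0.309) was 0.63 without that library. Dnajc7, which carries clients between HSP70 and HSP90, ran from 11.5 to 31.2 CPM in Standard GFP (median 22.6) and from 7.29 to 20.6 in ELS GFP (median 15.3). Its log2 fold change of -0.57 (SE 0.25, edgeR adjusted p = 0.349) was -0.47 without its top library, so it did not rest on 1 library, but it did not pass. Dnajb2 (-0.79) and Dnajc8 (-0.64) were at -0.14 and -0.26 without theirs. By family, log2 fold changes ran from 0.02 to 0.44 over the 3 HSP110 genes and from -0.49 to -0.03 over the 3 HSP90 genes. The Hsp90aa1 value, -0.03, was above 0 under 4 other settings, among them 0.13 without the libraries under 1 M.

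Standard Dot1l overexpression was compared with Standard GFP, the same controls as above. Again 0 of the 60 genes and 0.0% of all genes passed. At an unadjusted p under 0.05, 5 were higher (4.59% of all genes) and 4 lower (6.28%). By DESeq2, 0 of 58 passed, against 0.311% of all genes. The median was 0.04 over the 60 (33 above 0, 27 below) and 0.02 over all genes. Summed medium spiny neuron markers had a median of 654.8 CPM with overexpression (9 of 10 had log2 fold changes below 0) and myelin markers one of 539.4 (7 of 7 below 0). Astrocyte markers had a median of 543.9 CPM, microglia markers one of 369.2 and endothelial markers one of 88.3. Against the control values above, microglia and endothelial medians were higher and the others lower. All these ranges overlapped those of the controls, and the part of the markers was not tested. Dnajc18 had the smallest p. It ran from 12.2 to 30.3 CPM in Standard GFP (median 19.7) and from 20.8 to 119.8 in the overexpression group (median 27.7), and the groups overlapped. The log2 fold change was 0.91 (SE 0.29, edgeR adjusted p = 0.187), and 0.43 without overexpression replicate 2.

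Dnajc5, the cysteine string protein, ran from 30.0 to 54.8 CPM in Standard GFP (median 38.7) and from 38.1 to 125.5 with overexpression (median 48.5). Its log2 fold change of 0.52 (SE 0.21, edgeR adjusted p = 0.314) was 0.27 without the same replicate 2. Dnajb1, the inducible HSP40, and Hspb11, a subunit of the intraflagellar transport complex, were each high in replicate 1 of the overexpression group, with 108.0 and 92.4 CPM, where the next libraries had 12.4 and 7.12. Without it the log2 fold change of Dnajb1 went from 1.37 to 0.04 and that of Hspb11 from 1.66 to -0.22. Lower values were given by Dnajb2 (-1.03), Hspb8 (-1.83), Hsp90ab1 (-0.54) and Dnajc6 (-0.51), all with 1 or more high Standard GFP libraries. Hsp90ab1 was at -0.28 without Standard GFP replicate 6, and Dnajc6, which ran from 70.8 to 250.0 CPM in the controls and from 40.9 to 129.7 with overexpression, was at -0.24 without replicate 1. Without Standard GFP replicate 5 Dnajb2 was at -0.38, and without replicate 6 Hspb8 was at 0.57.

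ELS Dot1l knockdown was compared with ELS GFP. None of the 60 genes and 0.0% of all genes passed. At an unadjusted p under 0.05, 3 were higher (2.23% of all genes) and 2 lower (3.95%). By DESeq2, 0 of 60 passed, against 0.0143% of all genes. The median was 0.02 over the 60 (31 above 0, 29 below) and 0.002 over all genes. Summed microglia markers had medians of 215.2 CPM in ELS GFP and 432.0 with knockdown (5 of 5 tested above 0) and endothelial markers 122.4 and 89.0 (6 of 6 below 0), with overlapping ranges, and their part was not tested. Hspa13, an HSP70 of the microsomes, had the largest value (log2 fold change 2.43, SE 0.73, edgeR adjusted p = 0.335). It rested on knockdown replicate 7, a library of 0.462 M counts in which 143 reads of this gene made 215.8 CPM. The other 7 libraries had at most 9.77 CPM, and without replicate 7 the log2 fold change was -0.17.

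Dnaja1 appeared here with the other sign, -1.11 (SE 0.34, edgeR adjusted p = 0.34). The ELS GFP libraries are shared with the stress comparison, and without ELS GFP replicate 2 the value was -0.37. Its levels in the knockdown group ran from 12.6 to 36.4 CPM (median 24.4). Hsph1 went from -0.57 to -0.25 and Dnajc27 from -0.81 to 0.05 without the same library. Hsp90b1, the ER HSP90, was less dependent on 1 library: it ran from 30.8 to 60.4 CPM in ELS GFP (median 48.2) and from 50.4 to 84.3 with knockdown (median 58.7). All knockdown libraries lay above the ELS GFP median, the groups overlapped, and the log2 fold change was 0.44 (SE 0.21, edgeR adjusted p = 0.771) or 0.37 without its top library. Its ER partner Hspa5 was at 0.05 (SE 0.34). Hspd1, the mitochondrial chaperonin, was at 0.58 and, without knockdown replicate 3, at 0.21, while its partner Hspe1 was at -0.36. Dnajb13, a protein of sperm and cilia, had at most 15.9 CPM, and its value of 1.61 was 1.05 without that library. Hspa4l had -0.35.

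**Figure D2:**
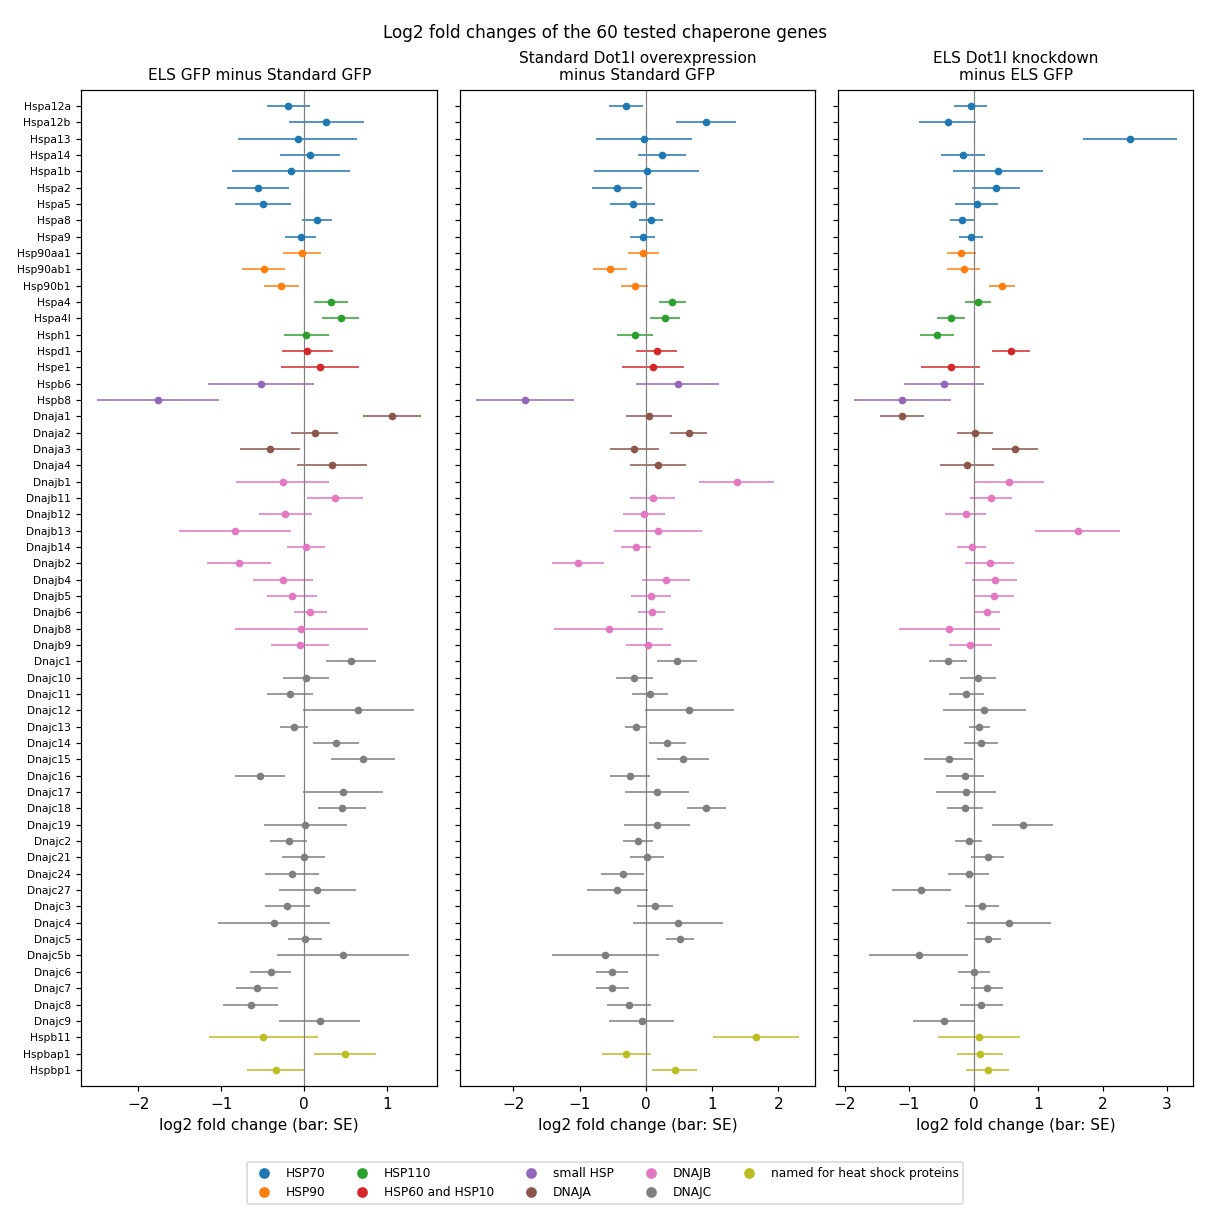
Log2 fold changes (points) with standard errors (bars) of the 60 tested chaperone genes in 3 comparisons, coloured by family. Points lie on both sides of 0 in the large families, and the farthest points, such as Hspa13 (2.43 with knockdown) and Hspb8 (-1.83 with overexpression), have wide bars.

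The wider folding machinery gave the same count. The 6 lists held 5 tested genes under heat shock factors (among them Hsbp1, which is not itself a factor), 18 HSP90 co-chaperones, 10 HSP70 exchange factors, 14 subunits of the cytosolic chaperonin and prefoldin, 19 ER folding genes and 8 mitochondrial quality control genes. None of them passed in any of the 3 comparisons. At an unadjusted p under 0.05, ELS gave 1, 2 and 1 higher genes among co-chaperones, exchange factors and ER folding genes, and 3, 1 and 1 lower genes among chaperonin, ER and mitochondrial genes. Over the 74 tested genes of the 6 lists that was 5.41% higher and 6.76% lower, near the 4.0% and 7.73% of all genes. Overexpression gave 7 higher (9.46%, against 4.59% of all genes) and 3 lower (4.05%, against 6.28%), and knockdown 0 higher (against 2.23%) and 1 lower (1.35%, against 3.95%). Ptges3 (p23, which steadies the closed form of HSP90) had a log2 fold change of 1.39 with ELS (edgeR adjusted p = 0.185) and -1.32 with knockdown (edgeR adjusted p = 0.536). Both comparisons use the ELS GFP libraries, and Ptges3 had 281.9 CPM in ELS GFP replicate 2, where the next library had 35.4. Without that replicate the values were 0.02 and 0.05. Calr, the calreticulin of the ER, had -0.76 with ELS (edgeR adjusted p = 0.272) and -0.41 without Standard GFP replicate 6. Pfdn6, a prefoldin subunit, had -3.45 with ELS and -3.26 with overexpression (edgeR adjusted p = 0.12 and 0.145), which share their controls. Standard GFP replicate 6 had 178.8 CPM of Pfdn6, and without it the values were 0.39 and 0.59.

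H3K79me2 lies along the transcribed first part of active genes. The Standard list named 50 of the 74 genes with 398 distinct peaks, and the ELS list 48 with 377. Some peaks also carried the name of another gene: 80 of the Standard peaks and 71 of the ELS peaks. A named gene is therefore not always the gene that a peak lies in. Hspe1 was named by 1 peak per list, with 0 bases inside its RefSeq span. Dnajb7, which had no count in any library, was also named in each list. Among genes tested for RNA, 78.3% of chaperone genes had a peak in the Standard list against 56.9% of all tested genes, and 73.3% against 52.7% in the ELS list. A median of 21.6% of the gene span was covered in the Standard list against 1.99% over all tested genes with RefSeq coordinates, and 14.1% against 0.295% in the ELS list. The tested chaperone genes had a median span of 22708 bases, all tested genes 29643. There is 1 list per rearing group, so no difference between lists can be tested. The peaks' folds are the authors' own.

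The peaks began after the start of the gene. At the start itself 0 of 49 chaperone genes with a promoter window were covered in either list, where 2.32% of all 10551 genes measured this way were in the Standard and 1.32% in the ELS list, so few genes of any kind were covered there. At 2000 bases downstream 53.1% were covered in Standard males and 46.9% in ELS males, against 31.9% and 25.1% of all genes. At 10000 bases the shares were 22.5% and 18.4%, against 19.3% and 15.7%. A peak reached into a promoter window of 5 of the 60 chaperone genes with a window, tested for RNA or not, in each list. Of these genes 4 were the same in both lists. The share over all genes was not computed for this count.

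**Figure D3:**
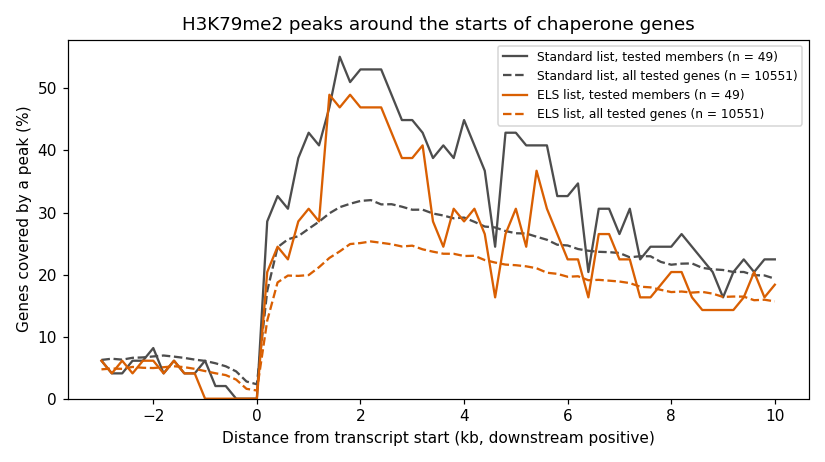
Share of genes (%) covered by an H3K79me2 peak at each distance from the transcript start (kb), for 49 tested chaperone genes and all 10551 tested genes with a promoter window, in both lists. Coverage of the chaperone genes goes from 0% at the start to 53.1% (Standard) and 46.9% (ELS) at 2 kb, above the curves of all genes, and nears them by 10 kb.

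The longest coverage was at large DnaJ genes. Dnajc1 carried 51.3 kb of peaks in Standard males and 38.7 kb in ELS males, Dnajc6 44.1 and 31.5 kb, Dnajb6 30.8 and 23.2 kb, Dnajc5 24.1 and 21.6 kb and Dnajc7 21.5 and 17.6 kb. Peaks spanned 70.8% of Dnajc5 in Standard males and 63.3% in ELS males. The highest fold was at Dnajb6 in both lists (3.49 and 3.01). It was followed by Dnajb12 (3.42), Dnajc11, a mitochondrial membrane protein (3.17), Dnajc5 (3.17) and Dnajc17 (3.08) in the Standard list, and by Dnajc11 (2.94), Dnajc7 (2.90), Dnajb12 (2.85) and Dnajb14 (2.80) in the ELS list.

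The cytosolic HSP90 genes, which took a large share of the RNA counts, had peaks in the Standard list alone. Hsp90aa1, on chr12:110691036-110696395, had 4 peaks that covered 24.7% of its span in the Standard list, with a highest fold of 2.01, and no peak in the ELS list. They lay at chr12:110692429-110692683, chr12:110693480-110693746, chr12:110695019-110695292 and chr12:110695655-110696184 (mm10, as listed), each inside the gene. Hsp90ab1 had 1 Standard peak of 704 bases with a fold of 2.18, from 60 bases after its start, and none in the ELS list. Hspa8 had peaks in both lists, over 48.1% of its span in Standard and 38.9% in ELS males, from 47 and 78 bases after the start. Peaks in the Standard list alone were also named for Dnajc10, an ER disulfide reductase, and Hspa4l, and peaks in the ELS list alone for Dnajc4 and Hspb9. Among the 60 tested chaperone genes 4 (6.67%) had peaks in the Standard list alone and 1 (1.67%) in the ELS list alone, against 4.94% and 0.76% of all tested genes. The Standard list is also the longer of the pair, with 117819 peaks against 106374. Those of Dnajc10, Hspa4l, Dnajc4 and Hspb9 were 1 peak each, of at most 359 bases. The peaks named for Dnajc4 and Hspb9 had 0 bases inside the RefSeq spans of these genes. Of genes with a mean of at least 20 CPM, Dnajb5 alone had no peak in either list. None of the 7 small heat shock protein genes had a Standard peak, but only 2 of them had enough counts to be tested for RNA, and the share of 56.9% above is that of tested genes.

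**Figure D4:**
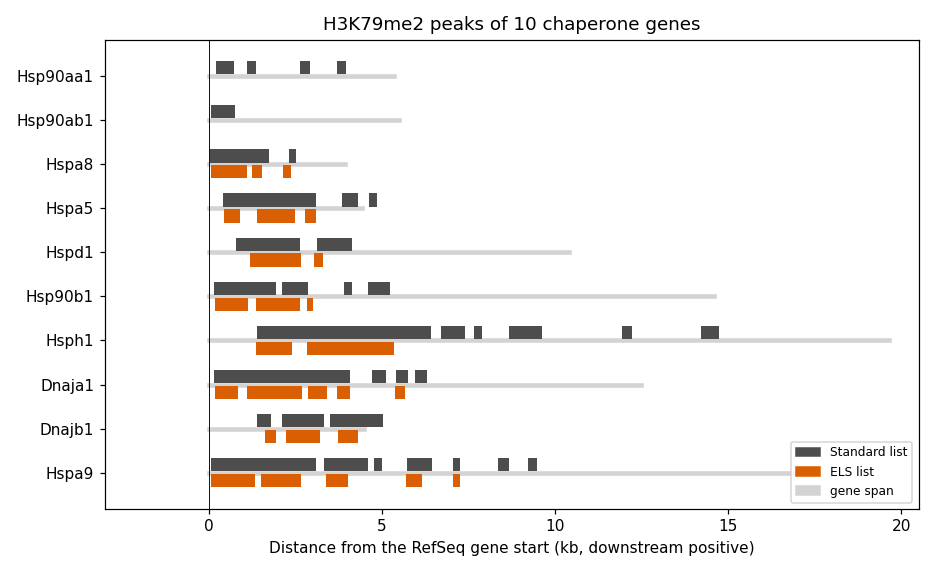
H3K79me2 peaks of 10 chaperone genes by distance from the RefSeq gene start (kb) in the Standard list (dark bars) and ELS list (orange bars); grey lines are gene spans. Hsp90aa1 and Hsp90ab1 have Standard bars alone, and for Hspa5 and Dnaja1 1 long Standard bar stands over several ELS bars. Hsph1 has 6 Standard bars and 2 ELS bars.

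Peaks together covered less of the gene span in the ELS list at most chaperone genes with coverage, as they did at most tested genes with coverage. Of 46 tested chaperone genes with coverage in their span, 44 were covered over a longer stretch in the Standard list (95.7%), against 94.7% of all tested genes. The summed length in ELS was 0.756 times that in Standard, against 0.735 over all genes. The exceptions, named after their values were seen, were Dnajc2 and Dnajc21. Hspa5 went from 70.5% of its span in Standard to 42.5% in ELS males, Dnajb1 from 57.7% to 42.1% and Dnaja1 from 40.1% to 28.0%. Of the Standard peaks of chaperone genes 65.3% overlapped an ELS peak by at least 1 base, and of the ELS peaks 90.5% overlapped a Standard peak, close to the 62.6% and 90.8% of all peaks. Mean CPM and the share of span covered had a Spearman's rho of 0.51 over the 60 genes in the Standard list (0.472 over all genes). In the ELS list it was 0.382 (0.475 over all genes). CPM is not divided by gene length, so length may enter these values, which are given as a description across genes.

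**Figure D5:**
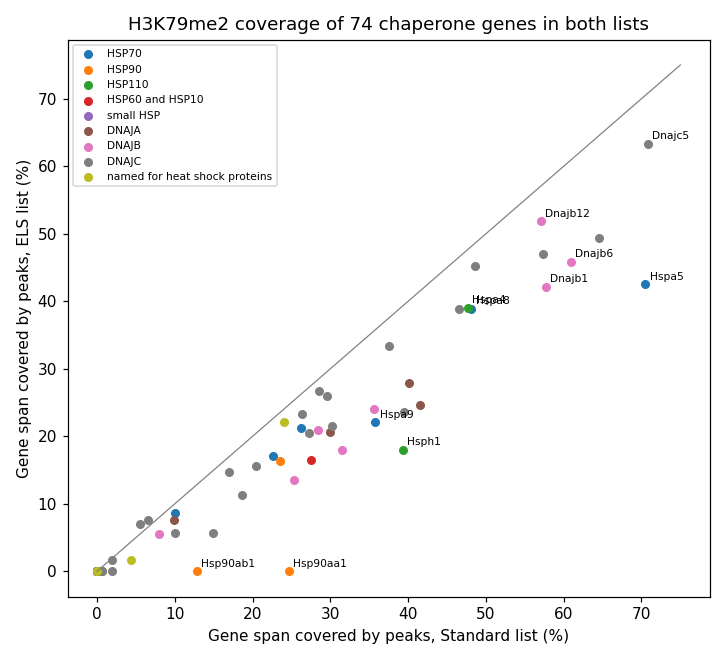
Share of the gene span covered by H3K79me2 peaks (%), Standard list on the x axis and ELS list on the y axis, for 74 chaperone genes, coloured by family, with the line of equality. Nearly all genes with coverage lie below the line, Dnajc5 highest at 70.8% and 63.3%, and Hsp90aa1 and Hsp90ab1 lie on the x axis.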

How the data were processed

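The authors deposited raw counts per Ensembl gene for 32 RNA libraries and, for each rearing group, 1 list of H3K79me2 peaks. Per the file headers, each deposited peak has a q-value and a fold (a ratio). Per the submitters' processing notes the build was mm10 and the tools FastQC, HISAT2, featureCounts and DESeq2, while the table's own name speaks of HTSeq. Not given in the sources used here are the counter, the peak caller, how libraries were pooled and whether strand was used, so overlapping or antisense genes may share reads. Symbols matched 52403 of 52636 gene IDs, and 0 columns were left unmatched.

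The main test was edgeR 4.0.16 under R 4.3.3: filterByExpr (14016 genes), TMM, robust quasi-likelihood fit of all libraries with 4 group means, Benjamini-Hochberg adjustment over all genes, threshold 0.05, SE derived from the F statistic. The fit was tested on simulated data. CPM uses TMM library sizes, and ± is the SD. Alternatives used DESeq2 1.42.0, limma 3.58.1 (voom), other size factors and filters, and left libraries out. Peaks were joined to genes by the lists' names and clipped to RefSeq spans for shares. Figures used matplotlib 3.10.9.

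The chaperone genes and the lists were chosen with earlier results of these data known. Genes are named by rule: 12 core chaperones, the 4 smallest p-values per direction and comparison, the 3 most counted per family, the 5 least and 5 most variable, the extremes of the peak lists and the 5 most like Hspa8. Replicate numbers follow accession order and pair nothing.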

Additional observations from a re-analysis of the deposited data

Results flagged for a closer look

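Values were checked for 1 library standing far from its group (Dixon's test, 8 libraries) in 25 chaperone genes and 4 groups. Of 100 sets of values 32 were marked, where chance marks about 1 in 20 sets of normally distributed values. Many of the 25 genes were picked by their p-values, which single high libraries enter, so this share is no test. It was 25.8% over all 60 tested chaperone genes and 23.9% over all tested genes. ELS GFP replicate 2 was the high library in 7 of them: Dnaja1 at 199.7 CPM, Dnajc27 at 140.0, Dnajc1 at 182.4, Hsph1 at 154.1, Hspa8 at 675.0, Hsp90aa1 at 538.8 and Hsp90ab1 at 935.1. Overexpression replicate 1 was the high library in 5, with Dnajb1 at 108.0 CPM, Hspb11 at 92.42, Dnajc1 at 224.2, Dnajc8 at 105.5 and Dnajc27 at 39.97. Overexpression replicate 2 was high for Dnajc18 at 119.8, Dnajc5 at 125.5 and Dnajc15 at 34.19 CPM. Replicate 5 of that group was high for Hspb8 at 14.52 CPM, and replicate 8 was low for Hspa1b at 0.4032 CPM (2 reads).

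In Standard GFP, replicate 5 was high for Dnajb2 at 62.88 CPM (36 reads) and Hsp90aa1 at 459.4 and low for Hspd1 at 3.494 CPM (2 reads). Replicate 1 was high for Hspa5 at 257.9 and Dnajc6 at 250.0 CPM, replicate 6 for Hspb8 at 93.2 and Dnajc27 at 108.7, and replicate 3 for Dnajb13 at 9.612 and Hspa1b at 4.005. Replicates 1 and 5 are among the libraries under 1 M counts. ELS GFP replicate 6 was high for Dnajb2 at 15.41 and Hspb8 at 13.39 CPM, and replicate 7 for Dnajc15 at 45.57. In the knockdown group, replicate 7 was high for Hspa13 at 215.8 CPM (143 reads), replicate 3 for Hspd1 at 51.58 and replicate 8 for Hspa8 at 366.6. Of the marked libraries, ELS GFP replicate 2, overexpression replicates 1 and 2, Standard GFP replicates 5 and 6 and knockdown replicate 7 carry the number 2 in their titles. So do Standard GFP replicate 4 and knockdown replicate 6, which were not marked. The labels do not explain this number, and its part in the single high values was not tested.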

How the results depend on the processing

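In each of the 3 comparisons 0 chaperone genes passed under the 7 alternatives to the main fit and with each of the 32 libraries left out. Over all genes, leaving out the libraries under 1 M gave 7 calls with ELS (0.0462%), 18 with overexpression (0.119%) and 0 with knockdown, and DESeq2 85, 41 and 2. With the title number as a factor in edgeR, ELS gave 425 lower and 490 higher genes at an unadjusted p under 0.05. The main fit gave 1084 and 560. The title numbers are not spread evenly over the ELS GFP and Standard GFP libraries, and their part in this change was not tested. The lowest and highest medians with 1 library left out were -0.094 and -0.002 for ELS, -0.016 and 0.1 for overexpression and -0.021 and 0.063 for knockdown. Some log2 fold changes turned sign, small ones and also those of Hspa13 (2.43), Hspb11 (1.66) and Hspb8 (-1.76 and -1.83), and the cause was not tested. Without the libraries under 1 M, fewer samples entered and values became -0.015 (Dnaja1, overexpression), 0.132 and 0.131 (Hsp90aa1, ELS and overexpression), -0.159 (Hspa13, knockdown), -0.228 and 0.2 (Hspa1b and Hspa5, overexpression), 0.007 (Hspa9, knockdown) and -0.013 (Hspd1, ELS). With voom they became -0.06 (Dnaja1, overexpression), 0.071 (Dnajb1, ELS), -0.067 (Dnajc6, knockdown), 0.061 and 0.087 (Hsp90aa1, ELS and overexpression), 0.117 and -0.205 (Hspa1b, ELS and knockdown), 0.107 and 0.013 (Hspa9, knockdown and overexpression) and -0.074 (Hspd1, ELS). With DESeq2 they became -0.017 (Dnajc6, knockdown), -0.196 (Hspa13, knockdown), -0.233 (Hspb11, overexpression) and 0.645 and 0.571 (Hspb8, ELS and overexpression). With the title number as a factor they became -0.009 (Dnajc5, ELS), 0.169 and 0.054 (Hsp90aa1, ELS and overexpression) and 0.078 and -0.15 (Hspa1b, ELS and knockdown). With RLE size factors they became -0.002 (Dnajc5, ELS) and -0.017 (Dnajc6, knockdown), with no filter 0.005 and 0.009 (Hsp90aa1, ELS and overexpression), and with at least 1 CPM in 16 libraries -0.001 (Hspa1b, overexpression). Without the top library, chosen after seeing the data, 5 of 24 values turned sign: 0.052 (Dnajc27, knockdown), -0.166 (Hspa13, knockdown), -0.216 (Hspb11, overexpression) and 0.625 and 0.566 (Hspb8, ELS and overexpression). Of the pathway genes Ptges3 (0.048, knockdown) and Pfdn6 (0.392 and 0.587, ELS and overexpression) did so too. Promoter peaks alone covered 124.1 kb in the Standard list and 101.9 kb in the ELS list, where all peaks covered 437.6 and 334.7 kb. At 50% reciprocal overlap 157 Standard and 158 ELS peaks were shared, where 260 and 341 were at 1 base. No paired analysis was possible because replicate numbers follow accession order and the labels do not explain the numbers in the titles. Genes of few counts are limited by depth, and Hspa1b also by the uncertain split of reads with Hspa1a.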
